A study of Homo sapiens with 25 samples.

Results

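The 171 human microRNAs (miRNAs) described here are those with a number of 1000 or more. They were read at least in part of 9 small RNA libraries labelled as A2780, an established human ovarian cancer cell line. They were taken from the mature miRNA table by name: unstarred human rows of miR-548 or a number of at least 1000, above 0 in at least 1 library. They were thus chosen by name and by a level above 0. By name 179 of the 1410 rows fitted, 8 of these were at 0 in every library, and 171 remained as members, out of 1054 rows above 0. The smallest member reached 0.0331 reads per 1000000 miRNA reads (RPM) in its highest library, and the 8 rows outside the rule were at 0. No miR-548 row was among them, and that family is not analysed here. Because the rule used these levels, the number of members above 0 is a description.

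The cells carried a lentivirus for overexpression of pri-miR-450a (the miR-450a vector), a lentivirus for overexpression of pri-miR-450b (the miR-450b vector) or the lentivirus with no insert (the empty vector), with 3 libraries in each group. By their labels all were the same line, grown in RPMI medium with serum, and the identity of the cells was not checked. The labels name the replicates biological, but not separate transductions, clones or the promoter that drives the insert, and a p-value covers no more than the spread of these libraries, which may be technical. Also in the series are 12 mRNA samples and 4 Argonaute PAR-CLIP samples, which are not analysed here.

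A miRNA is cut from a hairpin transcript by the Microprocessor (DROSHA with DGCR8) and then by DICER1, and an arm of the hairpin is loaded into an Argonaute protein. Bases 2 to 8 of that arm, the seed, pair with target mRNAs. Numbers are given in order of registration, so high numbers mostly belong to miRNAs found late, by deep sequencing, many of them primate specific, weakly expressed and lying in introns of protein-coding genes.

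Mature sequences are shown first for a choice of members that differed between the vectors, with the seed in capitals, as RefSeq gives them on GRCh38.p14. The choice was not by size of difference, and miR-1295 is not shown. An ending of 5p or 3p names the arm.
hsa-miR-2110: uUGGGGAAacggccgcugagug
hsa-miR-3157-5p: uUCAGCCAggcuagugcagucu
hsa-miR-3679-5p: uGAGGAUAuggcagggaagggga
hsa-miR-3176: aCUGGCCUgggacuaccgg
hsa-miR-1305: uUUUCAACucuaaugggagaga
hsa-miR-3909: uGUCCUCUagggccugcagucu
hsa-miR-1306-3p: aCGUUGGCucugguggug
hsa-miR-1306-5p: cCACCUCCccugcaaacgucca
hsa-miR-1303: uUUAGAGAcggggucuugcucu
hsa-miR-1284: uCUAUACAgacccuggcuuuuc
hsa-miR-1245a: aAGUGAUCuaaaggccuacau
The rows miR-1303-3p, miR-1284-5p and miR-1245-3p of the table were matched to miR-1303, miR-1284 and miR-1245a by an older name or by their place in the hairpin.

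Both arms are shown for the most abundant members with 2 listed arms and for miR-1468, since the table does not say which arm their unstarred row holds.
hsa-miR-1180-3p: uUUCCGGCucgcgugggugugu
hsa-miR-1180-5p: gGACCCACccggccgggaaua
hsa-miR-1307-3p: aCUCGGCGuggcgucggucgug
hsa-miR-1307-5p: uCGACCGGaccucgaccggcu
hsa-miR-1468-5p: cUCCGUUUgccuguuucgcug
hsa-miR-1468-3p: aGCAAAAUaagcaaauggaaaa
Of the 42 members abundant enough to be tested, 20 had a mature sequence that could be assigned, and these 20 had 20 different seeds. Among 99 assigned member sequences the length ran from 18 to 24 bases and the GC content from 12.5% to 77.3%, with a median of 50%. The seed of miR-3679-5p, GAGGAUA, was also that of miR-1185-5p, which was read at under 10 RPM on average. The seed of miR-3619-5p, CAGCAGG, was also that of miR-214-3p, and the seed of miR-3129-5p, CAGUAGU, was also that of miR-199a-3p.

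Registration number is not age. Members carried 123 different numbers between 1179 and 4326, with miR-4326 the highest. A list of numbers that also name a mouse miRNA held 10 members, among them miR-1306, miR-1249, miR-1247 and miR-1298. The label of young miRNAs therefore could not be checked from these files, and the members are called here by their numbers.

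The miR-450a vector libraries stood apart from the other 6 before any member was considered. miR-450a itself was at 8967 to 20745 RPM in miR-450a vector cells, 270.2 to 504 RPM in miR-450b vector cells and 317 to 446 RPM in empty vector cells. miR-450b was at 207 to 293 RPM in miR-450a vector cells, 547 to 1543 RPM in miR-450b vector cells and 71.6 to 131 RPM in empty vector cells. A list of 10 mesenchymal rows (both arms of miR-214, miR-199b, miR-199a, miR-145 and miR-143) held 0.0418% to 0.0573% of reads in miR-450a vector cells, 20.6% to 25.1% in miR-450b vector cells and 18.0% to 25.8% in empty vector cells. A list of 12 epithelial rows (miR-200 family, miR-141, miR-429 and miR-205), which mark epithelial cells, summed to 279.8 to 371 RPM in miR-450a vector cells, 88.7 to 153 RPM in miR-450b vector cells and 69.7 to 98.5 RPM in empty vector cells. A list of 9 muscle rows summed to 16.2 to 32.1 RPM in miR-450a vector cells, 84.3 to 111 RPM in miR-450b vector cells and 543 to 692 RPM in empty vector cells. Only 2 of the 12 epithelial rows and 2 of the 9 muscle rows averaged 10 RPM or more. The viral miRNA SV40 miR-S1-3p was at 47.8 to 73.4 RPM in miR-450a vector cells, at most 0.501 RPM in miR-450b vector cells and at most 0.267 RPM in empty vector cells. These values move with every comparison of the miR-450a vector that follows. Their part in the results was not tested, and the insert cannot be told apart from any other difference between those 3 libraries and the rest. Between the miR-450b vector and the empty vector the mesenchymal sums overlapped, while the muscle sum was lower in every miR-450b vector library, and its part was not tested either. Sums of a blood list and of an endothelial list overlapped between all groups, and a liver list summed to at most 18.7 RPM.

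As a group the members held little of the miRNA pool, and more of it with the miR-450a vector. Their summed level was 10713, 8458 and 9979.8 RPM in miR-450a vector cells, 4961, 4826 and 5651 RPM in miR-450b vector cells and 4629.8, 4812 and 6007 RPM in empty vector cells. The 3 libraries of the miR-450a vector were all above the other 6, whose groups overlapped. As a share of all miRNA reads this was 0.972% ± 0.115 in miR-450a vector cells, 0.515% ± 0.0443 in miR-450b vector cells and 0.515% ± 0.0748 in empty vector cells (SD, n = 3 each). Without miR-1180 the sums were 5739 to 7463 RPM in miR-450a vector cells, 4227 to 5282 RPM in miR-450b vector cells and 4139 to 5685 RPM in empty vector cells. The number of members above 0 showed no such order: it averaged 141 ± 7.94 in miR-450a vector cells, 125 ± 5.13 in miR-450b vector cells and 137 ± 8.66 in empty vector cells (SD, n = 3 each). Members at 10 RPM or more numbered 58, 50 and 56 in miR-450a vector cells, 30, 33 and 33 in miR-450b vector cells and 33, 31 and 34 in empty vector cells. The same count was not made over the other rows. The median shift of all 406 rows that averaged 10 RPM or more was also upward, at 0.44 log2 units over the empty vector. The depth behind a level is unknown, since no read totals came with the shares, and a value of 0 sets no limit.

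**Figure D1:**
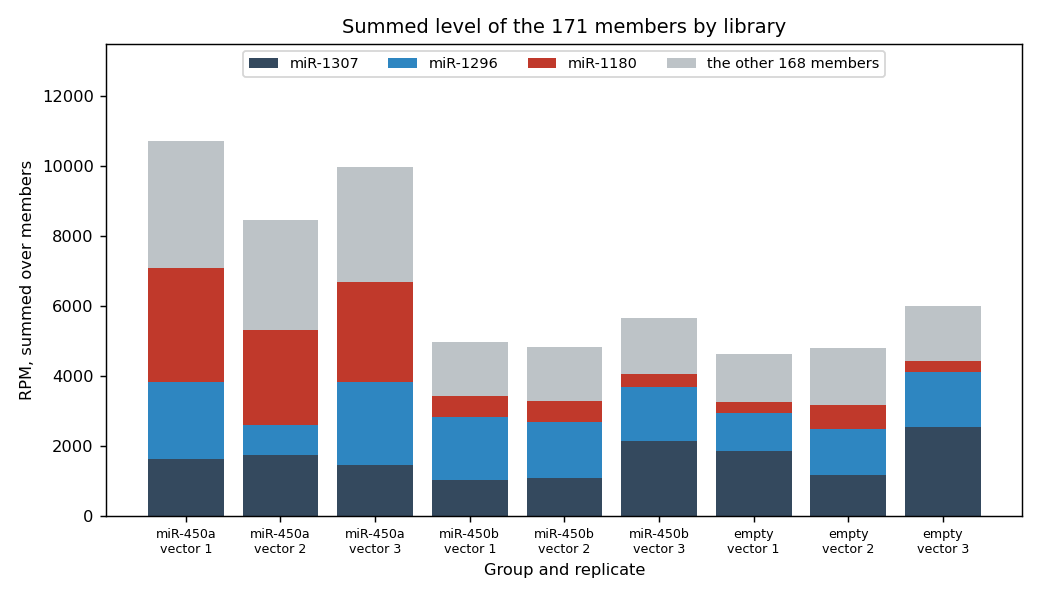
Summed level of the 171 members in each library in RPM (y axis from 0), split into miR-1307, miR-1296, miR-1180 and the other 168 members; x axis, group and replicate. The miR-450a vector libraries sum to 8458 to 10713 RPM and the other 6 to 4629.8 to 6007 RPM, and the segment of miR-1180 is the one that differs most in height.

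Most members were rare. Their median level over the 9 libraries was 2.60 RPM, against 17.9 RPM for the other 449 unstarred human rows above 0, and 24.6% of members reached a mean of 10 RPM, against 53.5% of those rows. Of the 171 members, 98 were above 0 in all 9 libraries, 62 in 2 to 8 and 11 in 1 library. A mean of 10 RPM was reached by 42 members, of which 9 reached 100 RPM and 3 reached 1000 RPM. The other 129 were under 10 RPM, 60 of them under 1 RPM. The lowest member tested, miR-1278, averaged 10.6 RPM, and the highest not tested, miR-3143-5p, averaged 9.82 RPM.

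miR-1307, miR-1296 and miR-1180 held 67.7% of the members' summed mean level. miR-1307, inside ATP5MK (a subunit of ATP synthase), stood at 1624, 1736 and 1441 RPM in libraries of the miR-450a vector and 1008, 1075 and 2133 RPM in those of the miR-450b vector, against 1842, 1153 and 2527 RPM in those of the empty vector. miR-1296, inside JMJD1C (a histone demethylase family member), stood at 2208, 865 and 2384 RPM under the miR-450a vector, 1823, 1604 and 1541 RPM under the miR-450b vector and 1089, 1329.8 and 1577 RPM under the empty vector. For both, all 3 groups overlapped and no comparison passed the threshold. miR-1180, inside B9D1 (a protein of the ciliary transition zone), stood at 3249.8, 2719 and 2851 RPM in miR-450a vector cells, 606, 598 and 369 RPM in miR-450b vector cells and 312, 673 and 322 RPM in empty vector cells. All 3 miR-450a vector libraries were above the other 6, which overlapped, so that miR-1180 was the most abundant member with the miR-450a vector and the third with the other vectors in mean level.

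The unstarred arm was not always the abundant one. The starred row miR-1307* stood at 3045, 1968 and 3018 RPM in miR-450a vector cells, 3277, 2403 and 2415 RPM in miR-450b vector cells and 1071, 2340.2 and 1977.9 RPM in empty vector cells, and exceeded miR-1307 in 7 of the 9 libraries. The 2 exceptions were empty vector replicates 1 and 3. miR-1307 made up 38.0% ± 7.79 of the reads of both arms in miR-450a vector cells, 33.8% ± 11.9 in miR-450b vector cells and 50.8% ± 15.8 in empty vector cells (SD, n = 3 each), and the 3 ranges overlapped. This was the only tested member of 27 with a starred row whose starred row was higher on average, and in 20 of the 27 the unstarred arm held over 90% of the reads on average. The starred row of miR-1180 averaged 8.02 RPM and that of miR-1296 averaged 6.46 RPM. The starred row of miR-2277 averaged 15.6 RPM, against 29.6 RPM for its unstarred row.

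**Figure D2:**
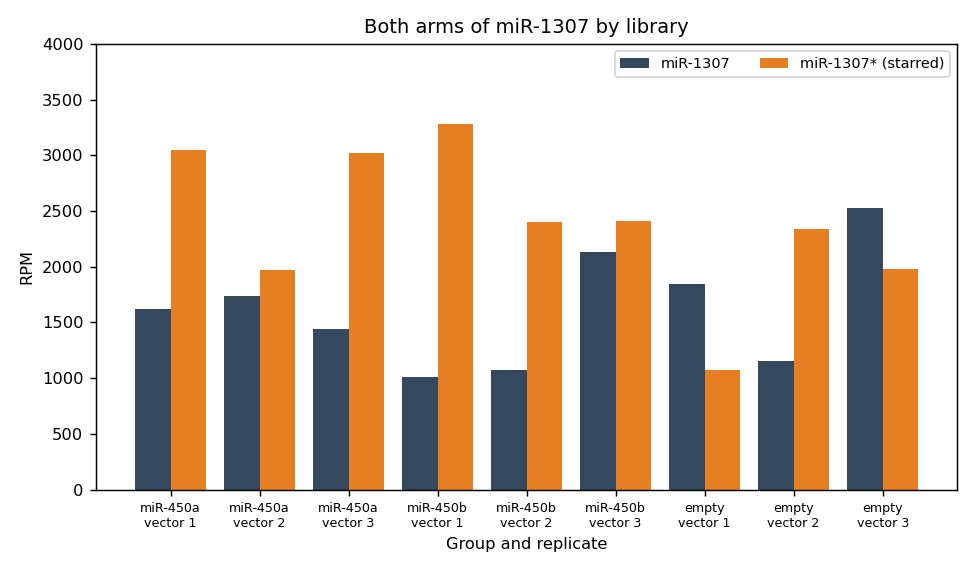
Level of miR-1307 (dark bars) and of its starred row miR-1307* (orange bars) in each library in RPM; x axis, group and replicate. The orange bar is the taller in 7 of 9 libraries, the exceptions being empty vector replicates 1 and 3.

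With the miR-450a vector, 22 of the 42 tested members rose against the empty vector and 1, miR-1303-3p, fell. The rises over 2 log2 units, on the scale used, were those of miR-1180, miR-1295, miR-2110, miR-3157-5p, miR-1306-3p, miR-1287, miR-3187 and miR-3679-5p. Differences are of log2(RPM + 10), with their standard error from a limma fit of the 406 rows that averaged 10 RPM or more, and p-values are adjusted over those 406 rows by Benjamini-Hochberg. Calls reached 54.8% of members, near the 55.4% of all rows called. Of the 42, 10 averaged 10 RPM or more with the miR-450a vector only and were tested because they were high there, so their difference follows in part from the filter. Of these 10, 7 rose, and of the other 32, 15 rose. By direction, 52.4% of members rose and 2.38% fell, against 36.9% and 18.5% of all rows. The groups did not overlap for 24 members, or 57.1%, against 57.9% of all rows. The median difference was 0.83 among members and 0.44 among all 406 rows, and each change stands beside that 0.44. With median-of-ratios scaling, which divides each library by its median ratio to the average library, the medians were 0.43 and -0.01, 15 members rose and 3 fell, and 49.5% in place of 66.7% of all calls were rises.

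**Figure D3:**
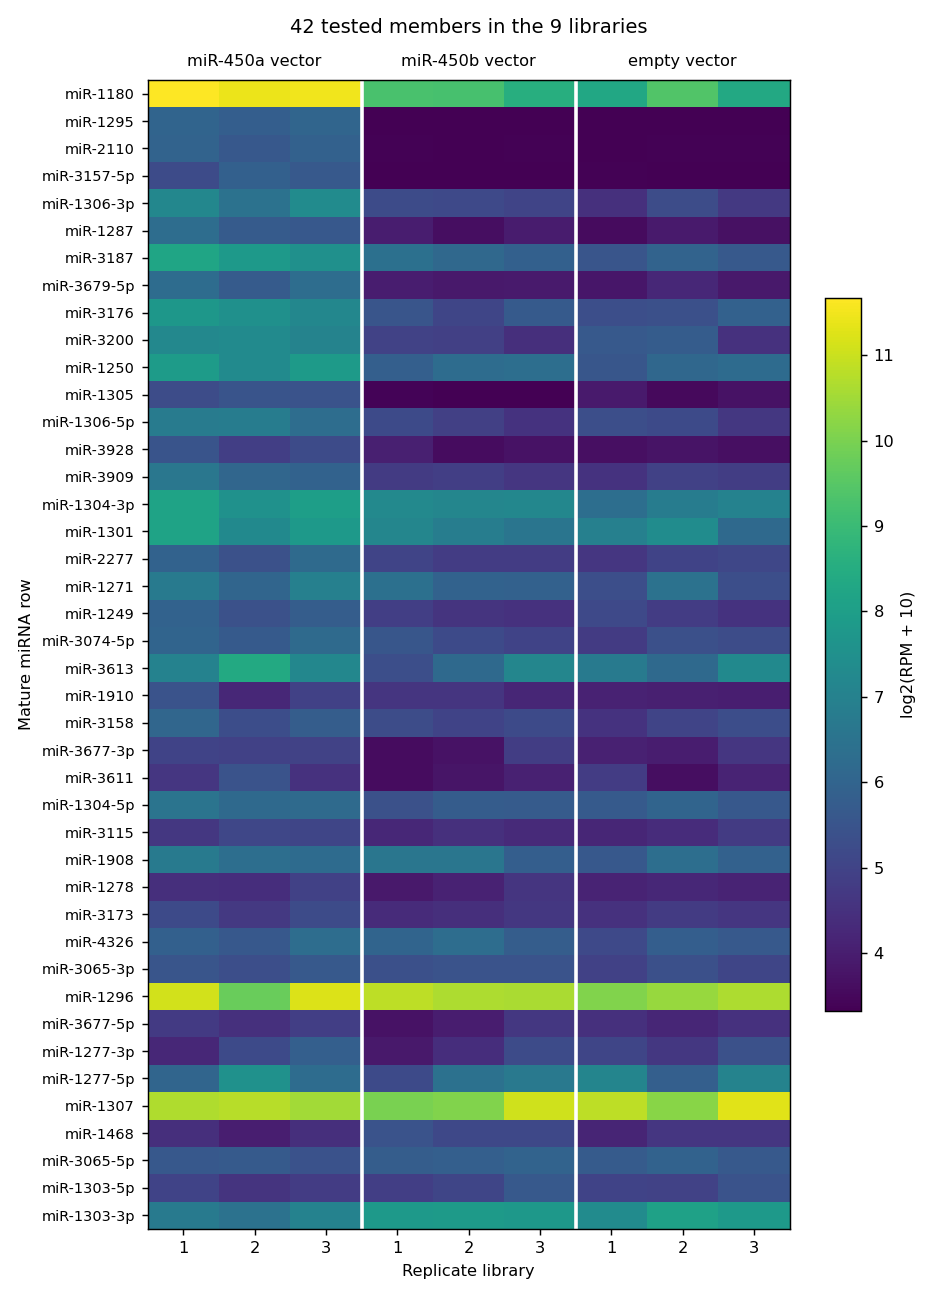
Level of the 42 tested members in the 9 libraries, as log2(RPM + 10) on the colour scale; rows are ordered by the difference between miR-450a vector and empty vector cells, columns are replicates 1 to 3 of each group. Rows at the top are brighter in the 3 miR-450a vector columns, and miR-1303-3p at the bottom is darker there.

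Among the most abundant members that rose, miR-1180 differed by 2.81 ± 0.35 (SE, adjusted p = 3.3e-05). miR-1304-3p, in TAF1D, stood at 276, 178 and 247 RPM in libraries of the miR-450a vector and 144, 133 and 136 RPM in those of the miR-450b vector, against 71.2, 104 and 121 RPM in those of the empty vector, a difference of 1.17 ± 0.28 (SE, adjusted p = 0.0037). Median-of-ratios scaling ended this call, with a difference of 0.68 (limma, adjusted p = 0.066). miR-1301, in DNMT3A (a DNA methyltransferase), stood at 275, 146 and 218 RPM under the miR-450a vector, 134, 105 and 84.7 RPM under the miR-450b vector and 115, 156 and 61.7 RPM under the empty vector. The lowest miR-450a vector library was below the highest empty vector library, and the difference of 0.92 ± 0.36 (SE, adjusted p = 0.048) lost its call under 11 of 19 alternatives. miR-3187, on the strand opposite PLPPR3, stood at 292, 217 and 172 RPM in miR-450a vector cells, 75.3, 60.9 and 49.1 RPM in miR-450b vector cells and 36.2, 53.1 and 40.7 RPM in empty vector cells, a difference of 2.13 ± 0.27 (SE, adjusted p = 4.7e-05). miR-3187 and miR-1304-3p were above every empty vector library in all 3 miR-450a vector libraries.

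miR-1250 lies inside AATK, a kinase gene expressed in brain, on the same strand as miR-338. miR-1250 stood at 228, 149 and 223 RPM in libraries of the miR-450a vector and 47.5, 67.4 and 70.8 RPM in those of the miR-450b vector, against 36.8, 58.8 and 65.9 RPM in those of the empty vector, a difference of 1.72 ± 0.29 (SE, adjusted p = 3.3e-04). miR-338-3p stood at 238, 939 and 646 RPM in miR-450a vector cells, 254, 744 and 469 RPM in miR-450b vector cells and 466, 447 and 477 RPM in empty vector cells, and its difference of 0.18 did not pass (adjusted p = 0.78). The hairpin of miR-3065 lies on the strand opposite miR-338. miR-3065-5p stood at 39.5, 41.1 and 33 RPM under the miR-450a vector, 45.7, 47.1 and 53.3 RPM under the miR-450b vector and 42.8, 51.7 and 40.7 RPM under the empty vector, with a difference of -0.20 ± 0.20 (SE, adjusted p = 0.41) from the empty vector, whose libraries overlapped those of the miR-450a vector. All 3 miR-450a vector libraries were below all 3 of the miR-450b vector, with a difference of -0.30 ± 0.20 (SE, adjusted p = 0.21). miR-3065-3p stood at 35.5, 30.6 and 40.3 RPM in miR-450a vector cells, 31.3, 34.3 and 33.8 RPM in miR-450b vector cells and 20.5, 31.3 and 23.2 RPM in empty vector cells, with a difference of 0.38 ± 0.20 (SE, adjusted p = 0.12). Neither miR-3065 arm passed with the shares as deposited, and miR-3065-5p was called lower with median-of-ratios scaling, at -0.60. The 5p arm made up 45.0% to 57.3% of the reads of both miR-3065 arms in miR-450a vector cells. It made up 57.8% to 61.2% in miR-450b vector cells and 62.3% to 67.6% in empty vector cells. These ranges did not overlap, and the arm balance was not tested.

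Both arms of miR-1306, whose hairpin lies in DGCR8, the RNA-binding subunit of the Microprocessor, rose. miR-1306-3p stood at 134, 78 and 152 RPM in libraries of the miR-450a vector and 27.4, 25.7 and 23.1 RPM in those of the miR-450b vector, against 12.1, 28.6 and 16.1 RPM in those of the empty vector, a difference of 2.18 ± 0.29 (SE, adjusted p = 6.1e-05). miR-1306-5p stood at 100.4, 104 and 69.6 RPM under the miR-450a vector, 26.9, 19.8 and 13.5 RPM under the miR-450b vector and 29.9, 26.8 and 15.3 RPM under the empty vector, a difference of 1.58 ± 0.26 (SE, adjusted p = 3.4e-04). In each arm the lowest miR-450a vector library was above the highest of the other 6. The 5p arm made up 43.7% ± 12.9 in miR-450a vector cells, 43.4% ± 6.33 in miR-450b vector cells and 56.1% ± 13.1 in empty vector cells (SD, n = 3 each) of the reads of both arms, with overlapping groups. miR-3173, in DICER1, stood at 26.6, 16.2 and 27.6 RPM in miR-450a vector cells, 10.4, 11.7 and 15.6 RPM in miR-450b vector cells and 12.6, 17.2 and 14.9 RPM in empty vector cells, and its difference of 0.41 ± 0.19 (SE, adjusted p = 0.096) did not pass.

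Further rises were found in members of lower level. miR-3176, in CAPN15, stood at 205, 173 and 135 RPM in libraries of the miR-450a vector and 36.4, 23.7 and 42 RPM in those of the miR-450b vector, against 30.1, 30.9 and 49.9 RPM in those of the empty vector, a difference of 1.96 ± 0.27. miR-3200, in OSBP2 (an oxysterol-binding protein), stood at 137, 151 and 124 RPM under the miR-450a vector, 21.5, 19.8 and 12 RPM under the miR-450b vector and 39.9, 44.4 and 12.8 RPM under the empty vector, a difference of 1.89 ± 0.32. miR-3909, in TOM1 (an endosomal trafficking protein), stood at 88.4, 57.3 and 52.2 RPM in miR-450a vector cells, 17.2, 19.2 and 15.2 RPM in miR-450b vector cells and 13.4, 20.7 and 18.8 RPM in empty vector cells, a difference of 1.44 ± 0.22. These 3 were above every other library in all 3 miR-450a vector libraries. miR-3679-5p, in MGAT5 (a glycosyltransferase), stood at 68.1, 43.1 and 68.6 RPM in libraries of the miR-450a vector and 5.78, 4.87 and 5.36 RPM in those of the miR-450b vector, against 4.21, 8.96 and 4.98 RPM in those of the empty vector, a difference of 2.11 ± 0.20. miR-1287, in PYROXD2, stood at 69.9, 42.3 and 39.3 RPM under the miR-450a vector, 5.9, 2.49 and 5.43 RPM under the miR-450b vector and 1.72, 5.14 and 3.11 RPM under the empty vector, a difference of 2.16 ± 0.21. miR-1305, in TENM3 (a cell adhesion protein), stood at 28.5, 35.2 and 34.4 RPM in miR-450a vector cells, 0.59, 0 and 0.0715 RPM in miR-450b vector cells and 5.04, 1.68 and 3.29 RPM in empty vector cells, a difference of 1.68 ± 0.15. miR-1305 was also lower in all 3 miR-450b vector libraries than in any empty vector library. miR-3928, outside protein-coding genes, stood at 35.1, 19 and 27.9 RPM in libraries of the miR-450a vector and 6.73, 2.17 and 3.36 RPM in those of the miR-450b vector, against 2.69, 3.66 and 2.67 RPM in those of the empty vector, a difference of 1.5 ± 0.19. All 7 passed. miR-3679-5p, miR-1287, miR-1305 and miR-3928 averaged under 10 RPM in both other groups and were tested only because of their level with the miR-450a vector, so their call is a description. The adjusted p of the other 3, miR-3176, miR-3200 and miR-3909, was at most 4.2e-04.

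miR-1295, miR-2110 and miR-3157-5p were at or near 0 outside the miR-450a vector libraries. miR-1295 stood at 54.7, 46.9 and 56.5 RPM under the miR-450a vector, 0, 0 and 0 RPM under the miR-450b vector and 0, 0.123 and 0 RPM under the empty vector. miR-2110, in CCDC186, stood at 53.7, 39.5 and 49.9 RPM in miR-450a vector cells, 0.236, 0.217 and 0.286 RPM in miR-450b vector cells and 0.166, 0.37 and 0.356 RPM in empty vector cells. miR-3157-5p, outside protein-coding genes, stood at 27.5, 48.6 and 39.9 RPM in libraries of the miR-450a vector and 0, 0 and 0 RPM in those of the miR-450b vector, against 0.331, 0.123 and 0.178 RPM in those of the empty vector. All 3 passed, but they reached the mean of 10 RPM needed for the test only through the miR-450a vector libraries. Their call is thus a description, and the size of the difference is set by the added 10 RPM. For miR-1295 it was 2.64, and it ran from 0.61 to 5.69 over the alternatives, and no fold is given against values of 0. The starred row of miR-2110 stood at 25.2, 13.7 and 22.5 RPM in miR-450a vector cells, 0, 0.217 and 0.358 RPM in miR-450b vector cells and 0.365, 0.123 and 0 RPM in empty vector cells.

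The smaller rises were less stable. miR-2277 stood at 51.4, 31.6 and 63.3 RPM under the miR-450a vector, 22.5, 18.2 and 18.2 RPM under the miR-450b vector and 15, 21.9 and 24.6 RPM under the empty vector, a difference of 0.92 ± 0.24 (SE, adjusted p = 0.0072). miR-1249, in KIAA0930, stood at 51.7, 31.9 and 44.7 RPM in miR-450a vector cells, 19.2, 14.1 and 12.7 RPM in miR-450b vector cells and 26.2, 18.1 and 13.4 RPM in empty vector cells, a difference of 0.86 ± 0.23 (SE, adjusted p = 0.0083). miR-3074-5p, cut from the strand opposite miR-24-1, stood at 54.8, 42 and 64 RPM in libraries of the miR-450a vector and 36.6, 26.6 and 22.2 RPM in those of the miR-450b vector, against 17.5, 31.1 and 28.3 RPM in those of the empty vector, a difference of 0.84 ± 0.24 (SE, adjusted p = 0.013). In these 3 the groups did not overlap, and median-of-ratios scaling ended the call. The miR-24 row, which sums 2 hairpins, fell by 2.13 in the same comparison (adjusted p = 0.0007). miR-1910, in C16orf74, stood at 34.4, 9.06 and 20.4 RPM under the miR-450a vector, 14.5, 14.2 and 8.51 RPM under the miR-450b vector and 7.46, 6.74 and 6.13 RPM under the empty vector, a difference of 0.82 ± 0.27 (SE, adjusted p = 0.024). miR-3158, whose copies lie on both strands in DPCD, stood at 57.6, 28.9 and 45.7 RPM in miR-450a vector cells, 28.3, 21.8 and 26.3 RPM in miR-450b vector cells and 13.2, 22.8 and 29.1 RPM in empty vector cells, a difference of 0.77 ± 0.26 (SE, adjusted p = 0.029). miR-1910 did not overlap between groups while miR-3158 did, and both lost their call under 6 of 18 alternatives, among them the fit without miR-450a vector replicate 1 and that without replicate 3.

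miR-1303-3p, in LARP1 (an RNA-binding protein of translation), was the 1 member that fell. It stood at 98.5, 79.1 and 119 RPM in libraries of the miR-450a vector and 217, 225 and 208 RPM in those of the miR-450b vector, against 151, 265 and 216 RPM in those of the empty vector, with every miR-450a vector library below every other, and a difference of -1.0 ± 0.28 (SE, adjusted p = 0.0099). Its call held under all 19 alternatives, with a difference between -0.63 and -1.47. The other arm, miR-1303-5p, stood at 22.2, 14.1 and 17.9 RPM under the miR-450a vector, 19.1, 23.6 and 40.9 RPM under the miR-450b vector and 21.7, 21.5 and 34 RPM under the empty vector, a difference of -0.34 ± 0.25 (SE, adjusted p = 0.27), and was called lower with median-of-ratios scaling, at -0.66. Of the 23 calls, 16 held under every alternative run, miR-1303-3p among them, and none changed direction.

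Members that did not pass between miR-450a vector and empty vector cells included several with spread between replicates of a group. miR-3613, outside protein-coding genes, stood at 121, 329 and 136 RPM in miR-450a vector cells, 29.8, 62.1 and 132 RPM in miR-450b vector cells and 96.9, 61.7 and 145 RPM in empty vector cells, and its replicates differed within each group. miR-1277-5p, in WDR44 on the X chromosome, stood at 55.7, 176 and 68.1 RPM in libraries of the miR-450a vector and 27, 75.8 and 94.5 RPM in those of the miR-450b vector, against 129.9, 47.6 and 124 RPM in those of the empty vector. miR-1277-3p stood at 8.93, 26.6 and 47.3 RPM under the miR-450a vector, 4.96, 11.3 and 27.9 RPM under the miR-450b vector and 23.2, 15.4 and 31.9 RPM under the empty vector. The groups overlapped for all 3. miR-1908, in FADS1 (a fatty acid desaturase), stood at 96.2, 70.6 and 65.8 RPM in miR-450a vector cells, 87.2, 87 and 45.8 RPM in miR-450b vector cells and 39.3, 70.6 and 49.7 RPM in empty vector cells. miR-1271, in ARL10, stood at 99.7, 56.1 and 114 RPM in libraries of the miR-450a vector and 74, 52.2 and 49.8 RPM in those of the miR-450b vector, against 30.2, 78.7 and 30.1 RPM in those of the empty vector. The difference of miR-1271 was 0.89 ± 0.36 (SE, adjusted p = 0.058), and RefSeq's 5p arm of it has the seed of miR-96-5p, UUGGCAC. miR-4326, which had no RefSeq match, stood at 49.2, 38.9 and 69.1 RPM under the miR-450a vector, 54.7, 68.4 and 45.5 RPM under the miR-450b vector and 26, 46.6 and 40.4 RPM under the empty vector. miR-1304-5p stood at 82.5, 61.7 and 63.7 RPM in miR-450a vector cells, 32.2, 44.2 and 42.8 RPM in miR-450b vector cells and 41.3, 55.3 and 39.6 RPM in empty vector cells, above every empty vector library but short of the threshold (adjusted p = 0.074). The 5p arm of miR-1304 made up 23.1% ± 2.61 in miR-450a vector cells, 22.4% ± 3.57 in miR-450b vector cells and 32.1% ± 6.48 in empty vector cells (SD, n = 3 each) of the reads of both arms. These groups overlapped, with empty vector replicate 3 at 24.7%.

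The lowest tested members were near the filter. miR-3677-3p stood at 21.9, 20.3 and 21.3 RPM in libraries of the miR-450a vector and 2.01, 3.14 and 18.5 RPM in those of the miR-450b vector, against 6.96, 5.83 and 14.8 RPM in those of the empty vector. miR-3677-5p stood at 16.5, 12.3 and 19.1 RPM under the miR-450a vector, 3.19, 5.74 and 15.4 RPM under the miR-450b vector and 12.5, 8.67 and 13 RPM under the empty vector. Both arms were lowest in miR-450b vector replicates 1 and 2. miR-3611, in CUL2 (a ubiquitin ligase scaffold), stood at 15, 34 and 12.7 RPM in miR-450a vector cells, 2.24, 3.9 and 7.08 RPM in miR-450b vector cells and 18.2, 2.34 and 7.91 RPM in empty vector cells. miR-3115, in KDM1A (a histone demethylase), stood at 15.8, 24.5 and 23.3 RPM in libraries of the miR-450a vector and 8.85, 12.2 and 9.87 RPM in those of the miR-450b vector, against 8.78, 10.7 and 17.5 RPM in those of the empty vector. miR-1278 stood at 11.8, 11.5 and 20.9 RPM under the miR-450a vector, 4.84, 7.25 and 14.3 RPM under the miR-450b vector and 7.79, 9.08 and 7.73 RPM under the empty vector. miR-3611 overlapped between miR-450a vector and empty vector cells, as did miR-3115, and miR-1278 did not overlap between them.

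**Figure D4:**
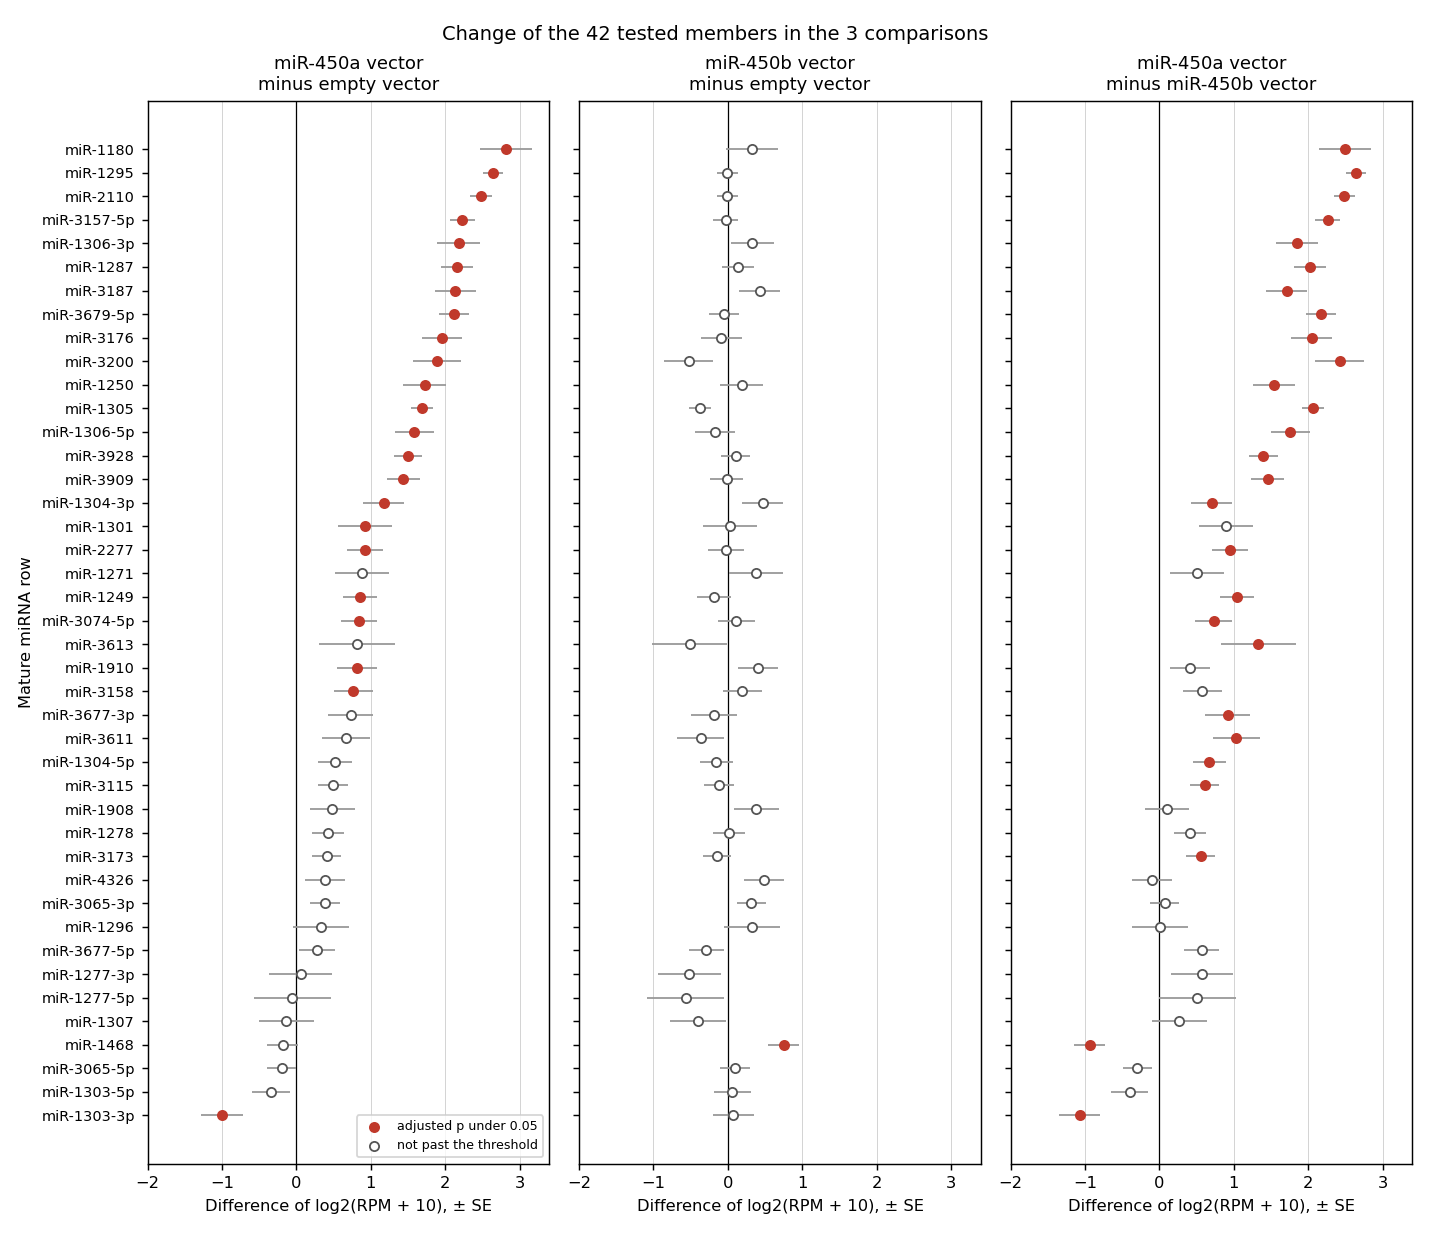
Difference of log2(RPM + 10) with its standard error for each tested member (rows) in the 3 comparisons (panels, the first named group minus the other); filled points passed adjusted p under 0.05 and open points did not. 23 points are filled in the left panel, 1 in the middle panel (miR-1468) and 27 in the right panel.

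With the miR-450b vector, 1 of the 42 tested members passed against the empty vector. miR-1468 rose, which is 2.38% of the 42, against 4.43% of all 406 rows, and no member passed as lower (limma, 1 member, miR-1305, at unadjusted p under 0.05), against 10.1% of all rows. In both directions 14.5% of all rows were called. miR-1468, on the X chromosome outside protein-coding genes, stood at 11.9, 6.24 and 11.8 RPM in miR-450a vector cells, 34.4, 25.2 and 24.7 RPM in miR-450b vector cells and 8.19, 15.2 and 14.9 RPM in empty vector cells. All 3 miR-450b vector libraries were above the other 6, with a difference of 0.75 ± 0.21 (SE, adjusted p = 0.031) against the empty vector. The call was lost under 6 of 18 alternatives, among them the fits without miR-450b vector replicate 1, without replicate 2 and without empty vector replicate 1, with an adjusted p of up to 0.14. The median difference was 0.01 among members and -0.16 among all rows, or 0.12 and -0.02 with median-of-ratios scaling, where rises made up 43.3% in place of 30.5% of all calls. The groups did not overlap for 6 members, or 14.3%, against 31.8% of all rows. The largest differences short of the threshold were those of miR-1277-5p at -0.57 ± 0.52 (SE, adjusted p = 0.49) and miR-3200 at -0.53 ± 0.32 (SE, adjusted p = 0.33).

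Set against the miR-450b vector, 25 members were higher with the miR-450a vector and 2 were lower, miR-1303-3p and miR-1468. These 27 were 64.3% of the 42, against 60.3% of all rows, with 59.5% and 4.76% of members higher and lower against 41.9% and 18.5% of all rows. The comparison shares the miR-450a vector libraries with the first, so it does not repeat it independently. Of the 10 members that averaged 10 RPM or more with the miR-450a vector only, 9 were higher here (miR-1305, miR-3679-5p, miR-3611 and miR-3677-3p among them), as were 16 of the other 32. Differences were 2.49 ± 0.35 for miR-1180, 2.42 ± 0.32 for miR-3200, 2.06 ± 0.15 for miR-1305 and 2.17 ± 0.20 for miR-3679-5p (SE). miR-1303-3p differed by -1.07 ± 0.28 (SE, adjusted p = 0.0067) and miR-1468 by -0.94 ± 0.21 (SE, adjusted p = 0.0025). miR-1468 did not pass between the miR-450a vector and the empty vector. The members higher here that did not pass against the empty vector were miR-3613, miR-3611, miR-3677-3p, miR-1304-5p, miR-3115 and miR-3173, with differences of 1.33 ± 0.51, 1.04 ± 0.32, 0.92 ± 0.30, 0.67 ± 0.23, 0.61 ± 0.20 and 0.56 ± 0.19. All 6 lost their call with median-of-ratios scaling, under which 15 members rose and 4 fell (miR-1303-3p, miR-3065-5p, miR-1303-5p and miR-1468). The median difference was 0.81 among members and 0.62 among all rows, or 0.20 and 0.01 with that scaling, where rises made up 45.9% in place of 69.4% of all calls. The groups did not overlap for 29 members, or 69%, against 69% of all rows. Of the 27 calls, 17 held under every alternative.

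Where the hairpins lie was read from RefSeq on GRCh38.p14, which matched 164 of the 171 members. Of these, 130 lay inside a protein-coding gene, 109 of them on its strand. Among the 41 tested members that matched, 35 lay inside such a gene and 28 on its strand. Of the 28, 16 rose and 1 fell in miR-450a vector over empty vector cells, where 36.9% of all rows rose and 18.5% fell. Of the 4 on the other strand only, 2 rose, and of the 6 outside, 2 rose. miR-1295, miR-2277 and miR-1278 lay inside a gene whose strand was not found. Of these, miR-1295 and miR-2277 rose and miR-1278 did not pass. Of those that rose, miR-2110, miR-1287, miR-3679-5p, miR-1305, miR-3157-5p, miR-3928 and miR-1295 averaged 10 RPM or more with the miR-450a vector only. They were tested because they were high there, so their rise follows in part from the filter. miR-3157-5p and miR-3928 were the 2 outside that rose. The shares were not tested against each other.

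The same reads were also summed by hairpin, so these counts are not independent of those of the arms. Of 40 tested hairpins of members, 26 rose and 1, mir-1303, fell in miR-450a vector over empty vector cells. They were 67.5% of the 40, against 62.7% of all 284 hairpin rows, with 65% and 2.5% higher and lower, against 43.3% and 19.4% of all rows. In miR-450b vector over empty vector cells 1 rose, mir-1468, or 2.5%, against 17.3% of rows called, 5.63% higher and 11.6% lower. Between the miR-450a and miR-450b vectors 28 were higher and 2 lower, or 75%, against 66.9% of rows, with 70% and 5% higher and lower, against 49.3% and 17.6% of all rows. Hairpins of untested arms that passed as higher in miR-450a vector over empty vector cells were mir-3127, by 1.20 ± 0.15, mir-1255a by 1.10 ± 0.16 and mir-2355 by 1.01 ± 0.23 (SE). mir-3127 and mir-1255a were among 10 of the 40 hairpins that averaged 10 RPM or more with the miR-450a vector only. Of these 10, 9 were among the 26, and 9 were among the 28 higher than with the miR-450b vector. Both counts thus follow in part from the filter. The hairpin of miR-1307, with both arms, averaged 4277 RPM in miR-450a vector cells and 3637 RPM in empty vector cells and did not pass (adjusted p = 0.42).

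Some members were on in some groups and near 0 in others: 11 were present at 1 RPM or more in every library of 1 or 2 groups and under 0.5 RPM in every library of the rest. These cuts were chosen after the values were seen, and no test was made. The members were rarer than the other rows set beside them, with a median of 2.60 RPM against 17.9 RPM. The shares were not matched for level, so they do not show a trait particular to the members. For the miR-450a vector alone there were 8 members, or 4.68% of members, against 1.56% of the other 449 rows: miR-1295, miR-2110 and miR-3157-5p, already described, and miR-1284-5p, miR-1284-3p, miR-3938, miR-3157-3p and miR-1252. miR-1284-5p, in FOXP1 (a transcription factor), stood at 16.9, 13.1 and 13.4 RPM in libraries of the miR-450a vector and 0, 0 and 0 RPM in those of the miR-450b vector, against 0, 0 and 0 RPM in those of the empty vector. miR-1284-3p stood at 14.3, 8.84 and 5.26 RPM under the miR-450a vector, 0, 0 and 0 RPM under the miR-450b vector and 0.331, 0.0411 and 0 RPM under the empty vector. Its hairpin was thus read from both arms in all 3 miR-450a vector libraries. miR-3938, in ERC2, stood at 6.06, 4.75 and 5.39 RPM in miR-450a vector cells, 0.472, 0 and 0 RPM in miR-450b vector cells and 0.0663, 0.205 and 0.178 RPM in empty vector cells. miR-1252, in SYT1 (a synaptic vesicle protein), stood at 3.18, 3.94 and 5.65 RPM in libraries of the miR-450a vector and 0, 0 and 0.143 RPM in those of the miR-450b vector, against 0, 0 and 0 RPM in those of the empty vector.

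The opposite pattern was seen in 2 members, or 1.17% of members, against 0.223% of the other 449 rows, again not matched for level. miR-1245-3p, whose hairpin lies within COL3A1 (a fibrillar collagen), stood at 0, 0.149 and 0.131 RPM under the miR-450a vector, 15.3, 16.8 and 12.9 RPM under the miR-450b vector and 2.75, 4.52 and 3.29 RPM under the empty vector, with the miR-450b vector above the empty vector in every library. miR-1251 stood at 0, 0.223 and 0 RPM in miR-450a vector cells, 2.72, 2.6 and 7.36 RPM in miR-450b vector cells and 28.5, 7.81 and 8.98 RPM in empty vector cells. Both were at or near 0 in all 3 miR-450a vector libraries, where the mesenchymal list held at most 0.0573% of reads, whose part in this was not tested. miR-3126-5p, in ANTXR1, was the 1 member (0.585% of members, against 0 of the other 449 rows) near 0 with the empty vector alone, and stood at 4.41, 1.93 and 3.81 RPM in libraries of the miR-450a vector and 1.3, 1.3 and 1.07 RPM in those of the miR-450b vector, against 0, 0 and 0 RPM in those of the empty vector.

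**Figure D5:**
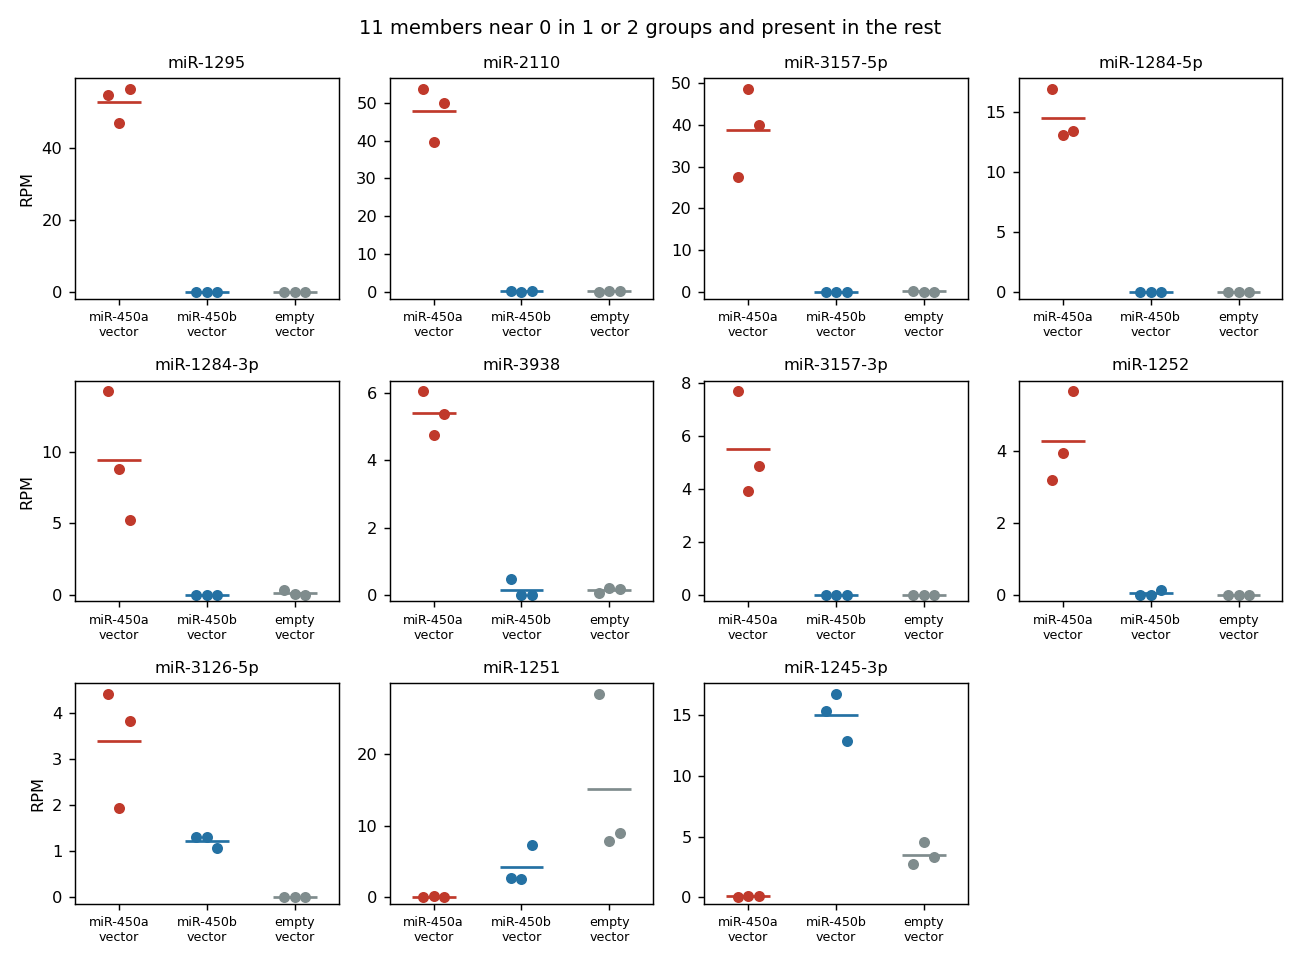
Level in RPM (y axis, a scale of its own in each panel) of the 11 members present in 1 or 2 groups and near 0 in the rest; points are libraries and lines are means of 3. The first 8 panels have points above 0.5 RPM with the miR-450a vector only, and miR-1251 and miR-1245-3p with the miR-450b and empty vectors only.

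The 10 members with the highest mean under 10 RPM were miR-3143-5p, miR-2355-3p, miR-3130-5p, miR-3177, miR-1255a-3p, miR-3944-3p, miR-3136, miR-3939-5p, miR-3691 and miR-2355-5p, at means of 6.87 to 9.82 RPM. miR-2355-3p, in KLF7 (a transcription factor), stood at 20.3, 22.1 and 13.3 RPM under the miR-450a vector, 0.826, 2.71 and 3.93 RPM under the miR-450b vector and 5.83, 5.51 and 5.15 RPM under the empty vector. miR-1255a-3p, within the bounds of PPP3CA (a calcineurin subunit), stood at 14.3, 17.2 and 15.1 RPM in miR-450a vector cells, 1.77, 3.46 and 4.15 RPM in miR-450b vector cells and 7.16, 5.01 and 3.82 RPM in empty vector cells. In both the 3 miR-450a vector libraries were above the other 6. miR-3143-5p stood at 6.16, 7.72 and 12.1 RPM in libraries of the miR-450a vector and 5.43, 10.3 and 8.94 RPM in those of the miR-450b vector, against 11.2, 12.2 and 14.3 RPM in those of the empty vector, and miR-3130-5p, in FASTKD2, stood at 13.8, 9.65 and 2.63 RPM under the miR-450a vector, 7.2, 6.28 and 5.29 RPM under the miR-450b vector and 11.9, 9.41 and 10.6 RPM under the empty vector. Both overlapped between miR-450a vector and empty vector cells. miR-3177, in MAPK8IP3, stood at 23.9, 9.28 and 18.4 RPM in miR-450a vector cells, 4.6, 3.68 and 2.5 RPM in miR-450b vector cells and 2.39, 5.63 and 2.76 RPM in empty vector cells. miR-3939-5p stood at 11.5, 16 and 12.5 RPM in libraries of the miR-450a vector and 3.31, 4.44 and 4.08 RPM in those of the miR-450b vector, against 3.61, 4.85 and 3.91 RPM in those of the empty vector. These 2 were higher in all 3 miR-450a vector libraries than in the other 6. miR-2355-5p stood at 20.1, 16.9 and 4.34 RPM under the miR-450a vector, 0.944, 1.73 and 3.43 RPM under the miR-450b vector and 4.91, 4.15 and 5.24 RPM under the empty vector, and miR-450a vector replicate 3 lay among the empty vector libraries. miR-3944-3p, in ECHS1, stood at 15.8, 6.76 and 16.7 RPM in miR-450a vector cells, 4.01, 6.93 and 4.5 RPM in miR-450b vector cells and 2.35, 5.14 and 6.67 RPM in empty vector cells. miR-3136, in TMF1, stood at 14, 13.7 and 9.85 RPM in libraries of the miR-450a vector and 1.65, 1.84 and 6.65 RPM in those of the miR-450b vector, against 5.17, 5.59 and 7.55 RPM in those of the empty vector. miR-3691, in LYRM4, stood at 12.2, 8.09 and 16.6 RPM under the miR-450a vector, 4.84, 3.68 and 4.93 RPM under the miR-450b vector and 2.82, 5.26 and 5.42 RPM under the empty vector. In these 3 every miR-450a vector library was above every empty vector library. For miR-3944-3p the lowest of them, at 6.76 RPM, barely exceeded 6.67 RPM and was below a miR-450b vector library at 6.93 RPM. Of all 406 rows tested, 57.9% did not overlap between miR-450a vector and empty vector cells. That share was not taken over rows under 10 RPM.

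Members with seeds or strands shared with abundant mesenchymal miRNAs stayed low. miR-3120 is cut from the strand opposite miR-214 and stood at 6.98, 3.04 and 4.2 RPM in miR-450a vector cells, 1.53, 3.14 and 1.86 RPM in miR-450b vector cells and 1.67, 1.71 and 1.96 RPM in empty vector cells. miR-214-3p itself stood at 25.2, 36.8 and 18.4 RPM in miR-450a vector cells, 23339, 18720.0 and 15363 RPM in miR-450b vector cells and 21933, 23168 and 14030.0 RPM in empty vector cells. The miR-450a vector thus had the lowest level of miR-214-3p and the highest mean of miR-3120. miR-3619-5p, with the seed of miR-214-3p, stood at 3.39, 6.46 and 3.94 RPM in libraries of the miR-450a vector and 2.48, 5.09 and 3.43 RPM in those of the miR-450b vector, against 2.95, 2.34 and 1.07 RPM in those of the empty vector. miR-3129-5p, with the seed of miR-199a-3p, stood at 0.205, 0.149 and 0 RPM under the miR-450a vector, 3.48, 1.08 and 1.93 RPM under the miR-450b vector and 0.53, 1.19 and 0.80 RPM under the empty vector. None of these 3 members was tested.

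Chosen lists of numbers gave few members. Lists of miR-548, of mirtrons (miRNAs spliced from short introns) and of numbers known as fragments of other RNAs held 0 members. A list of the 14q32 and chromosome 19 clusters, known from placenta and embryonic tissue, held 9 members, none tested and none above 2.88 RPM in any library. A list of miRNAs in the intron of HTR2C, a serotonin receptor, held 5, none tested and none above 0.616 RPM. The list of numbers that also name a mouse miRNA was not checked for completeness. Of its 10 members, 3 were tested, miR-1306-3p, miR-1306-5p and miR-1249. All 3 rose in miR-450a vector over empty vector cells, where 36.9% of all rows rose. The first 2 are arms of 1 hairpin, and miR-1249 lost its call with median-of-ratios scaling.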

How the data were processed

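Small RNA of A2780 cells was sequenced in 9 libraries, with TRIzol extraction and 50-cycle single reads on a HiSeq 3000, per the labels' protocols. Per the file headers, the authors deposited relative frequencies as fractions: every mature miRNA or hairpin as its part of a library's miRNA reads. No read total or depth is known, and no interval or count test was made. TopHat and Cuffdiff are named in the submitters' processing notes, without a role. For the fractions, the aligner, annotation and build were not given in the sources used here. Since fractions sum to 1, a fall of abundant miRNAs lifts the rest.

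Fractions were multiplied by 1000000 (RPM). limma 3.58.1 (R 4.3.3) with an intensity trend was run on log2(RPM + 10), which understates changes of low miRNAs, for rows averaging 10 RPM or more over all 9 libraries, with Benjamini-Hochberg adjustment over all rows and a threshold of 0.05. Hairpins were tested likewise. Every tested member, every called member and the 10 highest untested members were to be named (others named were chosen with their values known). The members and lists were chosen with earlier results of these data known. Alternatives were pseudocounts of 1 and 100 RPM, other filters, median-of-ratios scaling, leaving out the rows of the vector miRNAs, no trend, a fit of the compared groups, a replicate block, and each library left out. The code was tested on simulated data. Python 3.11.15, pandas 2.3.3 and matplotlib 3.10.9 made summaries and figures.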

Additional observations from a re-analysis of the deposited data

How the results depend on the processing

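In miR-450a vector over empty vector cells 23 members passed (22 higher, 1 lower), against 69 (62 and 7) with no filter, 66 (61 and 5) with a mean of at least 1 RPM, 6 (5 higher) with at least 100 RPM, and 3 lower with median-of-ratios scaling. The filter changes how many members are tested. In miR-450b vector over empty vector cells 1 member passed, higher. It was 2 with a pseudocount of 1 RPM (1 lower), 3 (all higher) with no filter and with at least 1 RPM, 0 with at least 100 RPM, 0 with no trend, and 2 (1 lower) with the compared groups only. In miR-450a over miR-450b vector cells 27 passed (25 higher, 2 lower), against 72 (65 and 7) with no filter, 71 (64 and 7) with at least 1 RPM, 7 (6 and 1) with at least 100 RPM, and 15 higher and 4 lower with median-of-ratios scaling. Hairpins called numbered 27, 1 and 30 in these comparisons. With no filter they were 61, 3 and 59, with at least 1 RPM 60, 4 and 60, and with at least 100 RPM 7, 0 and 8. Leaving out each library in turn gave 20 to 26 members (19 to 25 higher, 1 lower), 0 to 2 (0 to 1 higher, 0 to 1 lower) and 20 to 29 (18 to 27 higher, 2 lower). No called member changed direction under any alternative run. Where a cause is not named above, it was not tested.

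Replicate numbers gave no pairing that held across the groups: deviations of same-numbered libraries correlated at -0.51 to 0.64, over 0.1 in 4 of 9 pairs. Those of differently numbered libraries ran from -0.55 to 0.64, the highest being miR-450a vector replicate 2 with empty vector replicate 1. A link between libraries under other numbers was not tested. With the replicate block, which follows the numbers, 25, 0 and 28 members passed. In miR-450b vector over empty vector cells 0 hairpins passed with it. Unknown depth limits every level near 0.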
